A study of Mus musculus with 14 samples.

Results

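The genes described here are 47 subunits and close partners of Polycomb, BAF, NuRD and CHD chromatin complexes, followed through the differentiation of mouse neural stem cells. They were taken from a fixed list of subunit names, 23 of Polycomb, 19 of BAF and 5 of NuRD and CHD. That list was chosen with earlier results of these data known. All 47 were found among the 29713 genes of the files by matching Ensembl identifiers to symbols, and all 47 passed the filter on low counts that left 13144 genes for testing.

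Polycomb proteins form a pair of complexes that keep genes silent. In PRC2, Ezh2 or Ezh1 places methyl groups on lysine 27 of histone H3 with the help of Eed, Suz12, Rbbp4 and Rbbp7, and in PRC1, Ring1 or Rnf2 places ubiquitin on histone H2A with one of several Pcgf, Cbx and Phc proteins. BAF complexes use the energy of ATP, through Smarca4 (Brg1) or Smarca2 (Brm), to move nucleosomes, and in the developing nervous system the progenitor form, with Actl6a, Phf10, Dpf2 and Ss18, is known to give way to a neuronal form with Actl6b, Dpf1, Dpf3 and Ss18l1. NuRD joins Chd3 or Chd4, which remodel nucleosomes, to the histone deacetylases Hdac1 and Hdac2, while Chd7 is a remodeller of its own, known from neural crest and neural stem cell development.

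The study sequenced RNA of 14 libraries of neural stem cells of the OG2 strain, mice that carry a reporter of Pou5f1, and its title names the effect of naloxone on proliferation and differentiation as its question. Naloxone blocks opioid receptors, and the peptide DAMGO activates the mu type. One library each came from reference cells at passage 8 and at passage 13, which the series' design names as negative controls. The other 12 libraries, all at passage 8, combine 4 stages with 3 treatments, 1 library for each of the 12 conditions. The stages are undifferentiated cells and cells after 2, 4 or 8 days of differentiation, and the treatments are naloxone, DAMGO and NC, a label not spelled out that carries neither drug. The labels state no drug dose, culture medium, or number of cultures or animals behind a library. A stage is therefore represented below by its 3 libraries, 1 for each treatment, and a mean ± SD over them holds both library noise and any effect of the drugs. Because nothing says that the libraries came from separate cultures, p-values measure only the spread between these libraries, which may be technical. The fit adds a stage term and a treatment term, so that spread also holds any drug effect that differs between stages.

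Totals ran from 4143030 to 9070533 expected counts a library, so that 3 counts, taken as the limit of detection, were worth 0.354 to 0.693 CPM (counts scaled to library size by the TMM method). The 47 genes took 0.590 to 0.624% of the counts in every library up to day 4 and 0.419 to 0.423% in the 3 libraries of day 8. The culture itself changed in composition or state: the summed level of 12 proliferation genes was 4928 to 5126 CPM in the undifferentiated libraries and 205 to 239 CPM at day 8, that of 11 astrocyte markers went from 1284 to 1345 CPM to 36110 to 38016 CPM, and that of 8 oligodendrocyte markers from 93.8 to 96.4 CPM to 421.9 to 464.6 CPM. At day 2 the sum of the oligodendrocyte markers was 580 to 641 CPM, above that of day 8. The sum of 17 neuron markers was 1725 to 1759 CPM at first and spread from 886 to 2022 CPM over the day 2 libraries. It was 2210 to 2295 CPM at day 4 and 612 to 794 CPM at day 8. Even so, of the 13 neuron markers tested 6 were called higher and 5 lower at day 8. Microglia markers summed to at most 2.42 CPM in any of the 14 libraries, with Cx3cr1 without a count. Progenitor markers such as Nes and Sox2 summed to 7113 to 7408 CPM in the undifferentiated libraries, 3765 to 3904 CPM at day 4 and 8065 to 8323 CPM at day 8. Of the 8 progenitor markers tested, 5 were called higher and 3 lower at day 8. In the passage 8 reference library progenitor markers summed to 6847 CPM, and neuron markers to 1797 CPM. In such bulk libraries, fewer cells of a type and less RNA per cell cannot be told apart.

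The promoters of 6 genes on which the results turn are shown first, because these genes moved in opposite directions: the Polycomb catalytic pair Ezh2 and Ezh1, the PRC2 subunit Suz12, the BAF exchange pair Actl6a and Actl6b, and the subunit gene Dpf3. Each is the stretch of 250 bases before the start of transcription, taken from RefSeq on build GRCm38.p6 and written 5′ to 3′ on the strand of the gene. Capitals mark matches, on either strand, to the E2F letters TTTCCCGC, TTTCGCGC, TTTGCCGC or TTTGGCGC and to the CCAAT box.
Ezh2, chr6:47595031-47595280, minus strand: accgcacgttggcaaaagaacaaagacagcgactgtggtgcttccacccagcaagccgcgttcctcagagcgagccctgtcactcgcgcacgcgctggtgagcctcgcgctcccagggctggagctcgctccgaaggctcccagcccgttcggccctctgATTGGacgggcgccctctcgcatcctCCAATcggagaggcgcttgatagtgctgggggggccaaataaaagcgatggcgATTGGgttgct
Ezh1, chr11:101226464-101226713, minus strand: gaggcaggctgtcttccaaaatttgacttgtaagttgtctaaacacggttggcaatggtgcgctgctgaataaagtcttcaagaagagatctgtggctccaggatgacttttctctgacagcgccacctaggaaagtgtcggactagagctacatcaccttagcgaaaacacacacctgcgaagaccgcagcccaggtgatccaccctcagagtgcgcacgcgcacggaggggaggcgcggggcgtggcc
Suz12, chr11:79992856-79993105, plus strand: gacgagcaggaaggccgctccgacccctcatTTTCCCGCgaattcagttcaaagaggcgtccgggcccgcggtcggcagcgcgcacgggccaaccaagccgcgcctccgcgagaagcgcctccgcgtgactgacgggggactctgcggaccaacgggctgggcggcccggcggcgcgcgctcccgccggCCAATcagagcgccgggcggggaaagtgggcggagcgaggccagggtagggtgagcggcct
Actl6a, chr3:32708296-32708545, plus strand: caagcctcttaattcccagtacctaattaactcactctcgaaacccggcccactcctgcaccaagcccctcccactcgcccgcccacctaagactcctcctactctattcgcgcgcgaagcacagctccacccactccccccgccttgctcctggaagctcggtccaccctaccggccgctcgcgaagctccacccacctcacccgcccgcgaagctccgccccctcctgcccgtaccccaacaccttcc
Actl6b, chr5:137553296-137553545, plus strand: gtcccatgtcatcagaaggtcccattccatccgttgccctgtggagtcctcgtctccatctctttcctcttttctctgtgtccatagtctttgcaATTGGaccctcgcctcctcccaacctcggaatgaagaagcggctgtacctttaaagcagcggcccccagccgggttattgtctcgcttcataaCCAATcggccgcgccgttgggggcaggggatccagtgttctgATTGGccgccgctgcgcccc
Dpf3, chr12:83487737-83487986, minus strand: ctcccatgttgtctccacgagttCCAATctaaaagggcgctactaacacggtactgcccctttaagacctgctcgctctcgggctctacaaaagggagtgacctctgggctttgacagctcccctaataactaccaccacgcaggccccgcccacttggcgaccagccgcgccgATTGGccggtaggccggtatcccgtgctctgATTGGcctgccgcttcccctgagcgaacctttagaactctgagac

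RefSeq promoters were found for 38 of the 47 genes, 45 promoters in all. E2F letters stood in 3 of the 45 (6.67%), 1 each of Arid1a, Smarcd1 and Suz12, against 1.86% of all 32851 promoters in the table. The CCAAT box stood in 15 of the 45 (33.3%), against 33.85% of all promoters. These belong to 14 genes, among them Ezh2, Suz12, Actl6b and Dpf3. In the Suz12 promoter the E2F letters begin 219 bases before the start. CRE letters (TGACGTCA) were found in 1 gene, Cbx8, against 1.55% of all promoters, and the NRF1 motif in 1 gene, Phc3, against 0.78%. The RE1 letters TTCAGCACC, a part of the Rest binding motif, were found in none of the 38, against 0.30% of all promoters. Over 45 promoters, counts of 0 or 1 cannot be told from these shares. A match is a run of letters and was not tested as a binding site.

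Differentiation changed the level of most of these genes, in both directions. At day 8, 13 of the 47 were higher and 27 were lower than in the undifferentiated libraries (edgeR quasi-likelihood test, adjusted p under 0.05), where 80.1% of all 13144 genes tested were called, 41.6% higher and 38.5% lower. The share called was thus near that of all genes, with more of the calls on the lower side. With a change of at least 2-fold, 5 were higher and 15 were lower, against a background of 23.6% higher and 23.9% lower. The median log2 change over the 47 was -0.25, and over all genes 0.05.

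Of the 23 Polycomb genes, 5 rose and 14 fell by day 8, with a median log2 change of -0.70. Of the 19 BAF genes, 7 rose and 10 fell, with a median of -0.20. In the NuRD and CHD group of 5, Chd3 rose and Chd4, Chd7 and Hdac2 fell, also with a median of -0.20. Under scaling by TPM the split of the 47 was 11 higher and 30 lower, against 4373 and 5671 of all 13144 genes. The median log2 change of all genes was -0.18 there, in place of 0.05. With trends on transcript GC content and length removed, 8 of the 47 were higher and 29 lower, against 4804 and 5526 of all genes. Of the 40 genes called at day 8, 27 kept both call and direction under all 22 alternatives tried.

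**Figure D1:**
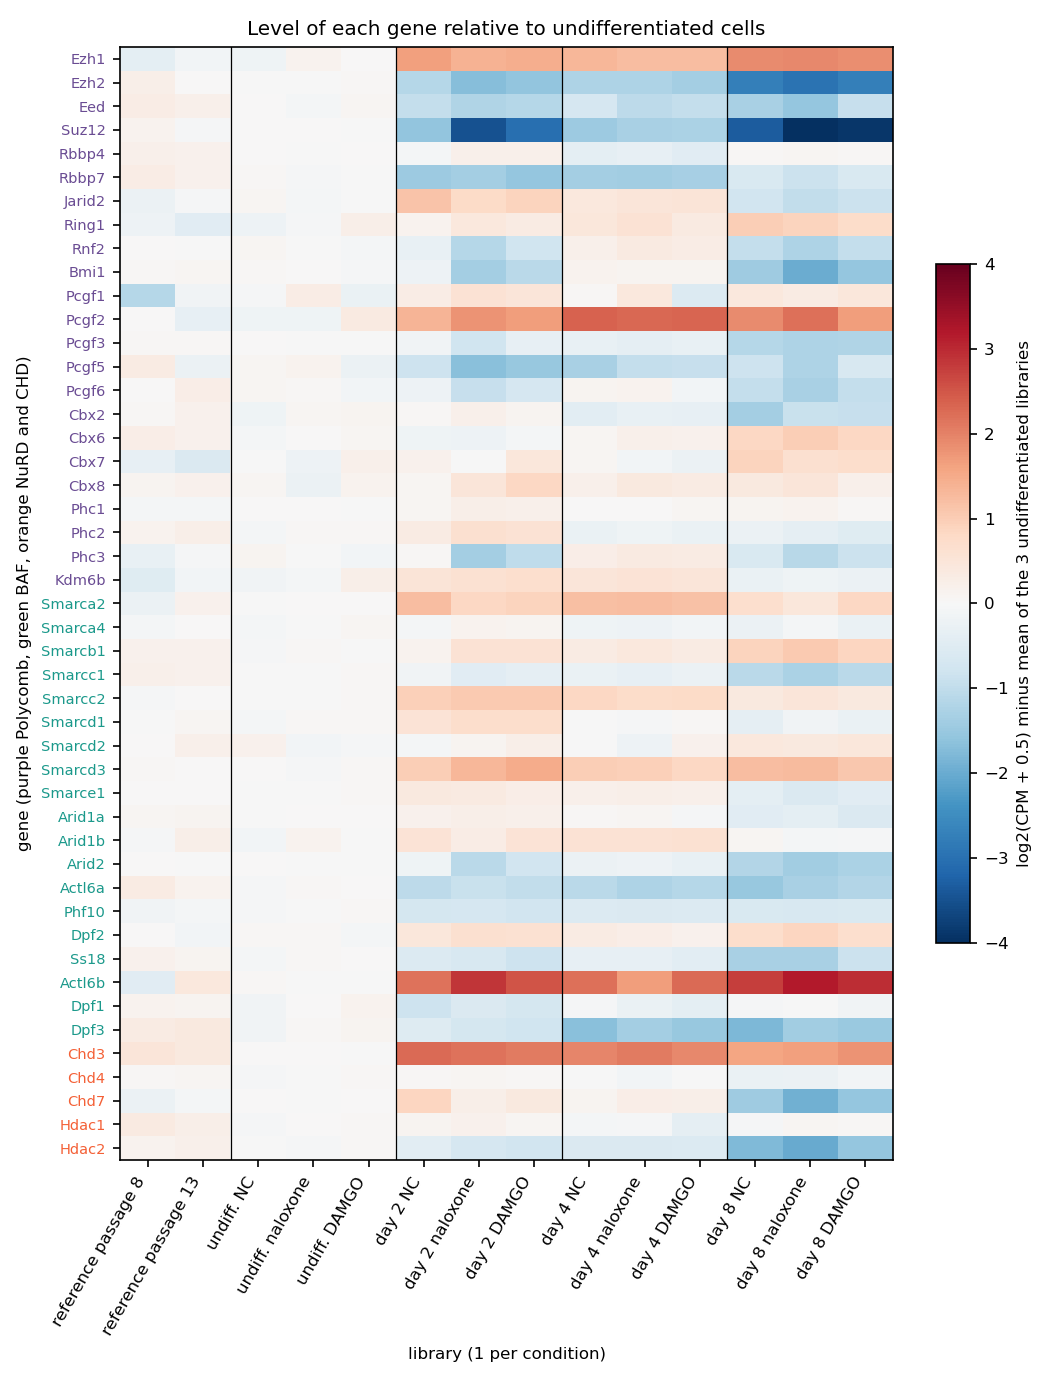
Heat map of the 47 genes (rows, grouped as Polycomb in purple, BAF in green, and NuRD and CHD in orange) over the 14 libraries (columns), coloured by log2(CPM + 0.5) minus the mean of the 3 undifferentiated libraries. The reference columns stay close to the undifferentiated ones for most genes, while by day 8 Suz12, Ezh2 and Hdac2 are far below and Actl6b, Pcgf2, Ezh1 and Chd3 above. Pcgf1 was at 1.97 CPM in the passage 8 reference, against 4.03 to 6.22 CPM in the undifferentiated libraries.

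Of the PRC2 enzymes, Ezh2 fell and Ezh1 rose. Ezh2 (chr6:47530139-47595341, minus strand), the main H3K27 methyltransferase of dividing cells, was at 189.9, 189.8 and 199 CPM in the undifferentiated NC, naloxone and DAMGO libraries, at 87.2, 58.9 and 63.8 CPM at day 2, at 81.6, 81.7 and 75.3 CPM at day 4 and at 28.5, 24.3 and 28.5 CPM at day 8. No library of a later stage reached the undifferentiated range, and the day 8 libraries lay below all others. The fall to day 8 was 7.16-fold (log2 change -2.84, SE 0.13, adjusted p = 1.21e-08). Its paralog Ezh1 (chr11:101191115-101226463, minus strand), which is known from non-dividing tissue, was at 7.86, 9.85 and 8.94 CPM in the undifferentiated libraries, at 28.6, 24.2 and 25.4 CPM at day 2, at 23.0, 21.7 and 21.5 CPM at day 4 and at 34.5, 34.7 and 33.7 CPM at day 8. The 4 stages did not overlap in Ezh1, with day 8 highest, and the log2 change to day 8 was 1.94 (SE 0.12, adjusted p = 1.10e-07). Levels can be compared between genes only per length. In TPM, Ezh1 stood at 0.0288 to 0.0316 of Ezh2 in the undifferentiated libraries and at 0.719 to 0.963 of it at day 8, so that Ezh2 remained the more abundant transcript in each of the 12 libraries.

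Suz12, the scaffold of PRC2, showed the deepest fall of the 47 by day 8 under TMM scaling, and with GC and length trends removed Dpf3 (-2.13), Ezh2 (-2.07) and Chd7 (-2.02) lay below it (-1.87). It was at 180.5, 178.5 and 175.3 CPM in the undifferentiated NC, naloxone and DAMGO libraries, at 59.5, 15.5 and 21.8 CPM at day 2, at 65.2, 72.3 and 73.0 CPM at day 4, and at 17.4, 10.04 and 11.6 CPM at day 8. Day 2 and day 8 overlapped, and the course was not a steady decline: Suz12 rose from day 2 to day 4 (log2 change 1.26, SE 0.33, adjusted p = 0.00999), a call lost without the day 2 DAMGO library (1.08) and with GC and length trends removed (0.16). The change from undifferentiated to day 8 was -3.83 on the log2 scale (SE 0.36, adjusted p = 3.64e-06). Suz12 has the lowest transcript GC content of the 47 genes, at 38.5%.

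The other PRC2 genes were less uniform. Eed, which reads the H3K27 mark, fell from 45.5 ± 2.07 to 19.1 ± 4.33 CPM (SD, n = 3 libraries each). Of the histone chaperones, Rbbp7 fell from 241.3 ± 6.77 to 149.6 ± 14.2 CPM, after a lower level of 88.0 ± 5.54 CPM at day 2, and Rbbp4 was not called at day 8, at 380.2 ± 2.98 and 397.5 ± 3.82 CPM. With GC and length trends removed the day 8 change of Rbbp7 was -0.11 and no longer called. Jarid2, which recruits PRC2 to its targets, rose first and then fell, from 67.8 ± 3.33 CPM before differentiation to 131.4 ± 17.9 CPM (day 2), 94.7 ± 2.77 CPM (day 4) and 36.9 ± 2.71 CPM (day 8). The 4 stages of Jarid2 did not overlap. Kdm6b, which removes H3K27 methylation, followed the same order, from 72.9 ± 10.6 CPM to 110.2 ± 5.71, 102.8 ± 1.94 and 61.8 ± 1.91 CPM. Its small fall at day 8 (log2 change -0.24, edgeR adjusted p = 0.0339) was not called in DESeq2 or without the filter on low counts. Nor was it called without the undifferentiated DAMGO library or any 1 of the day 8 libraries. The log2 changes in these fits were -0.13 to -0.26. Over all 22 alternatives they ran from -0.82 to -0.13. The TPM values of Kdm6b, 21.15 to 28.2 before and 15.24 to 16.61 at day 8, did not overlap.

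**Figure D2:**
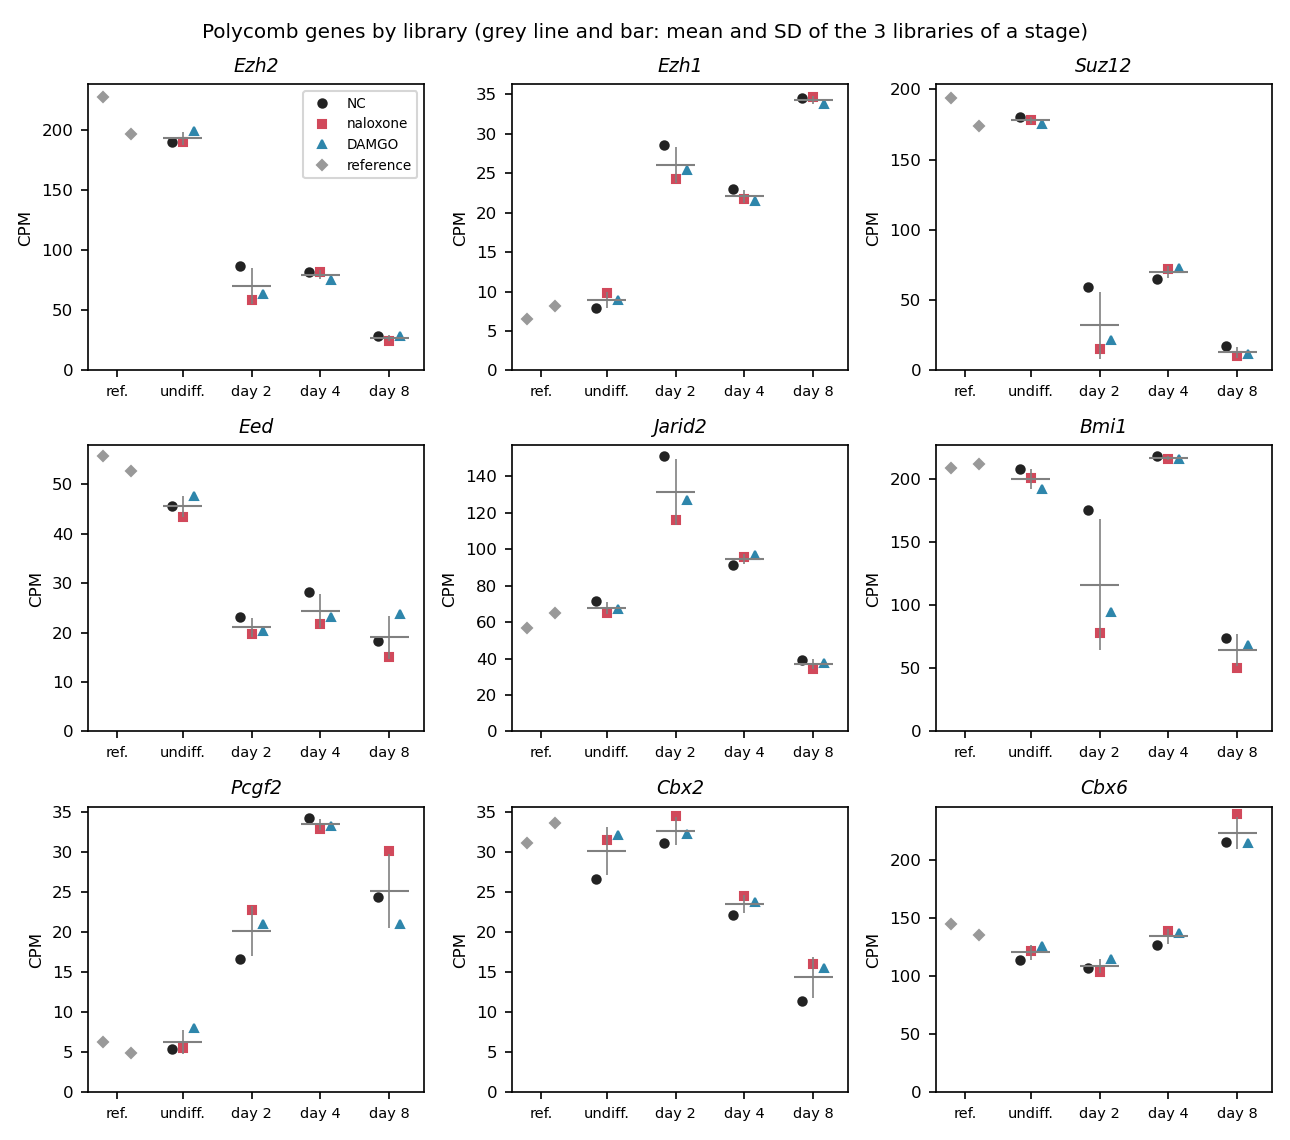
Levels of 9 Polycomb genes in CPM (vertical axes, linear from 0) by stage, 1 point a library, with the mean and SD of the 3 libraries of a stage as grey line and bar and the reference libraries at passage 8 and 13 as grey diamonds on the left. Ezh2 and Suz12 drop to 10 to 29 CPM by day 8 while Ezh1 climbs to 34 CPM, and Jarid2 peaks at day 2.

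In PRC1, the Pcgf subunits parted. Bmi1 (Pcgf4), known as a factor of neural stem cell self-renewal, was at 207.7, 200.5 and 192 CPM in the undifferentiated NC, naloxone and DAMGO libraries, at 175.4, 78.4 and 94.6 CPM at day 2, at 218.2, 215.6 and 216.1 CPM at day 4 and at 74.4, 50.4 and 68.7 CPM at day 8. Its day 4 libraries lay above the undifferentiated ones without a call, and it was called lower at day 8 (log2 change -1.66, SE 0.20) and at day 2 (-0.85, SE 0.20). With GC and length trends removed the day 2 change was -0.17 and not called. Pcgf2 (Mel18), the closest relative of Bmi1, was at 6.35 ± 1.49 CPM before differentiation and then at 20.2 ± 3.16 CPM (day 2), 33.5 ± 0.70 CPM (day 4) and 25.2 ± 4.63 CPM (day 8), called higher each time and with no overlap with the undifferentiated libraries at any of these stages. Per length, Pcgf2 went from 0.0418 to 0.0837 of Bmi1 in TPM to 0.475 to 0.862 of it at day 8.

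The Pcgf proteins of other PRC1 variants also differed. Pcgf3 fell from 122.5 ± 2.38 to 53.4 ± 2.27 CPM at day 8, Pcgf6 from 16.6 ± 1.14 to 7.64 ± 1.10 CPM, and Pcgf5 from 9.69 ± 1.42 to 5.03 ± 1.15 CPM. Pcgf1, at 5.03 ± 1.11 and 6.68 ± 0.28 CPM, was not called. Of the ubiquitin ligases, Rnf2 fell from 111.8 ± 5.93 to 54.1 ± 5.94 CPM and Ring1 rose from 21.6 ± 3.43 to 39.7 ± 3.61 CPM. Both calls were lost with GC and length trends removed, where the log2 changes were 0.04 and 0.11, as was that of Pcgf5 (-0.29).

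Among the Cbx proteins, which read H3K27 methylation, Cbx2 fell and Cbx6 and Cbx7 rose by day 8. Cbx2 was at 26.6, 31.5 and 32.1 CPM in the undifferentiated libraries and at 11.4, 16.1 and 15.6 CPM at day 8, a log2 change of -1.07 (SE 0.10). Cbx6 went from 120.6 ± 6.23 to 223.2 ± 13.97 CPM and Cbx7 from 7.23 ± 1.11 to 12.4 ± 1.17 CPM, and neither rise was called with GC and length trends removed. Cbx8 was not called, at 15.8 ± 2.21 and 20.5 ± 2.01 CPM. The Phc proteins, which let PRC1 complexes cluster, were also mixed: Phc2 fell from 188.9 ± 10.3 to 147.2 ± 11.7 CPM after 270.5 ± 29.8 CPM at day 2, Phc3 fell from 117 ± 9.18 to 64.5 ± 11.3 CPM, and Phc1, at 80.0 ± 1.15 and 85.5 ± 2.44 CPM, was not called.

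In the BAF family, the exchange of progenitor for neural subunits was seen for some pairs and not for others. Actl6a (chr3:32706298-32726973, plus strand), the progenitor actin-like subunit, was at 101.6, 108.5 and 105.4 CPM in the undifferentiated NC, naloxone and DAMGO libraries, at 50.2, 56.1 and 53.4 CPM at day 2, at 49.8, 44.0 and 47.1 CPM at day 4 and at 36.7, 42.4 and 46.5 CPM at day 8. Every differentiating library lay below every undifferentiated one. The log2 change to day 8 was -1.33 (SE 0.10, adjusted p = 4.57e-07). Of the exonic bases of Actl6a, 11.6% are shared with Mrpl47 on the opposite strand, which the library kit does not tell apart. Actl6b (chr5:137553517-137569582, plus strand), its neuronal counterpart, had 1 count in each undifferentiated library, 18, 35 and 19 at day 2, 16, 9 and 12 at day 4 and 22, 48 and 28 at day 8. Its counts were pooled over the libraries of a stage and divided by their summed scaled library sizes. The ratio of this pooled level to that of the undifferentiated libraries was 19.4 at day 2 (95% exact interval 6.38 to 96.3), 12.8 at day 4 (4.06 to 65.1) and 27.4 at day 8 (9.12 to 135.3), where the intervals cover counting error only. Even at day 8 it was a rare transcript, at 0.138 to 0.171 of Actl6a in TPM. No ratio is given for the undifferentiated libraries, where its single count lies under the limit of detection.

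Among the Dpf and Phf10 subunits the directions were mixed. Dpf3, a neural subunit, fell from 35.9, 41.8 and 42.8 CPM in the undifferentiated libraries to 27.9, 24.5 and 23.0 CPM at day 2, to 12.3, 15.5 and 13.6 CPM at day 4 and to 11.1, 15.1 and 14.01 CPM at day 8 (log2 change -1.58, SE 0.13, adjusted p = 1.68e-06), with no overlap between any later stage and the first. Dpf1, also neural, was at 35.4 ± 3.56 and 33.6 ± 1.53 CPM and was not called at day 8, after a dip to 21.5 ± 1.74 CPM at day 2. It was called lower at day 8 under TPM scaling (-0.70), in both limma fits (-0.69 and -0.70) and with GC and length trends removed (-0.85), and its TPM values, 50.07 to 58.55 before and 31.85 to 36.0 at day 8, did not overlap. Dpf2, listed with the progenitor form, rose from 85.2 ± 4.74 to 143.2 ± 10.2 CPM, and Phf10, the other progenitor subunit, fell from 71.5 ± 2.50 to 46.4 ± 0.88 CPM. In TPM, Dpf1 went from 0.657 to 0.742 of Dpf2 to 0.278 to 0.349 of it, and Dpf3 from 0.706 to 0.729 of Phf10 to 0.156 to 0.211 of it, both away from the neural subunit. The fall of Phf10 was not called with GC and length trends removed, at 0.02. Ss18, the progenitor subunit, fell from 132.8 ± 5.23 to 60.1 ± 11.6 CPM, and Ss18l1 (Crest), its neuronal relative, rose from 22.8 ± 2.53 to 33.8 ± 1.22 CPM, so that their TPM ratio went from 0.105 to 0.138 up to 0.314 to 0.472.

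**Figure D3:**
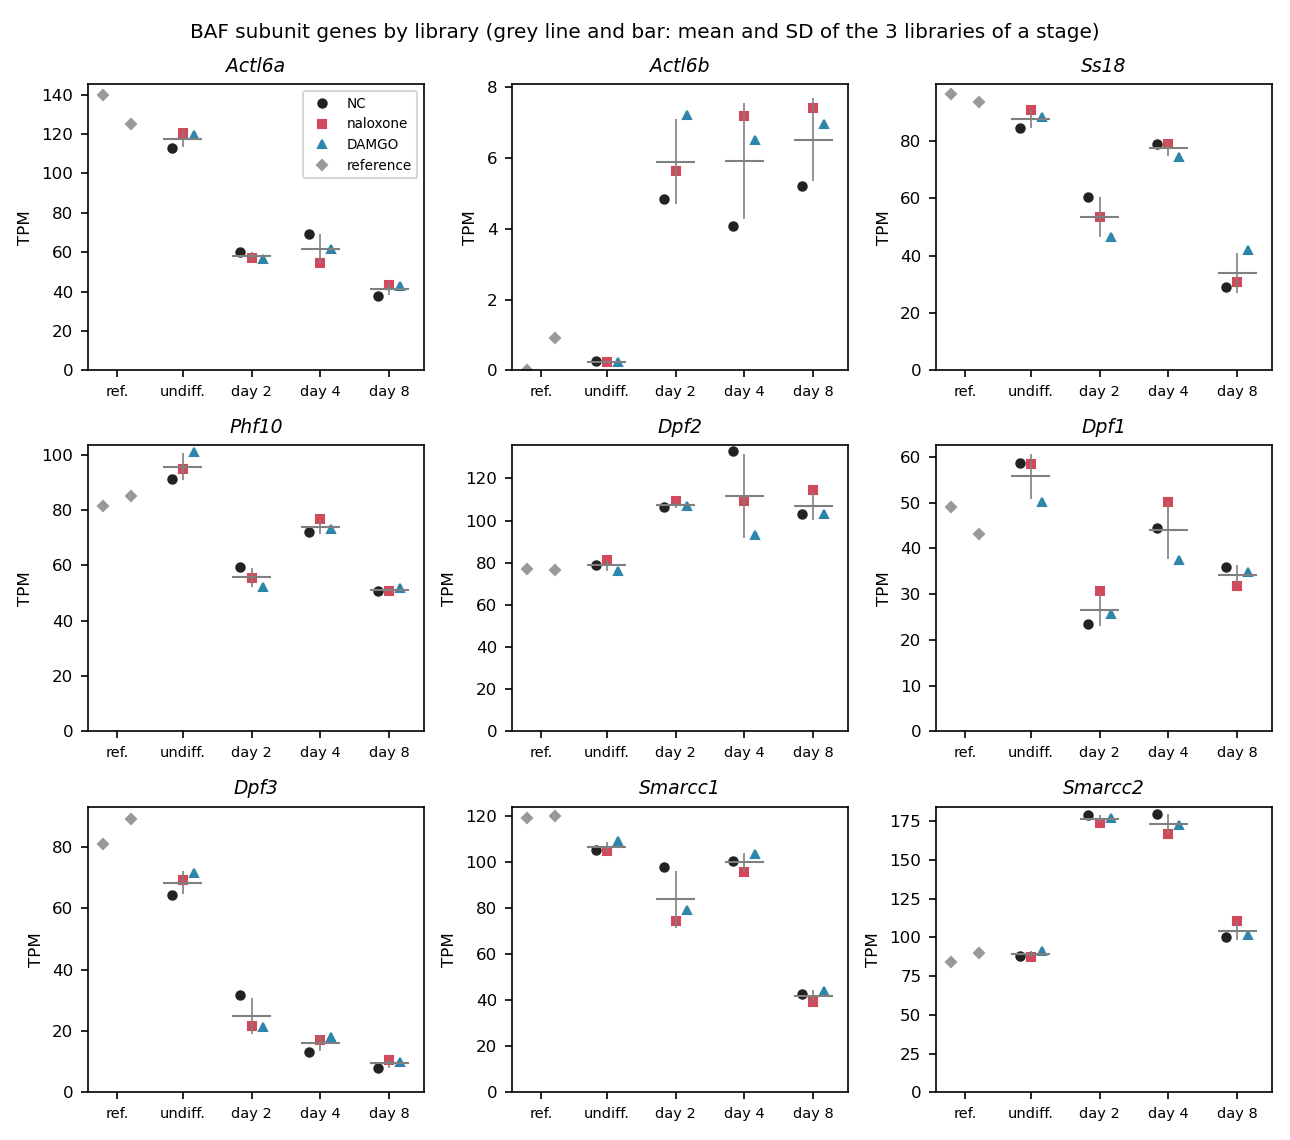
Levels of 9 BAF genes in TPM (vertical axes, linear from 0) by stage, drawn as in the plot of Polycomb levels, with points for libraries and grey bars for the SD of the 3 libraries of a stage. Actl6a and Ss18 fall and Actl6b rises from near 0 to between 5.2 and 7.41 TPM at day 8, while Dpf3 falls from above 60 to below 11 TPM and Dpf1 stays between 20 and 60 TPM.

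Of the BAF core, Smarcc1 (Baf155) and Smarcc2 (Baf170), scaffold proteins that can replace each other, crossed. Smarcc1 was at 302.3, 301.7 and 313.5 CPM in the undifferentiated libraries and at 143.6, 127.7 and 146 CPM at day 8 (log2 change -1.14, SE 0.07). Smarcc2 went from 205.3, 204.3 and 213.6 CPM before differentiation to 405.6, 425.9 and 430.2 CPM at day 2, 366.7, 343.1 and 350.6 CPM at day 4 and 273.3, 293.2 and 273.7 CPM at day 8. Smarcc2 was highest at day 2 and above the undifferentiated range at each later stage. In TPM it stood at 0.836 to 0.838 of Smarcc1 before differentiation and at 2.31 to 2.83 of it at day 8. The fall of Smarcc1 was called under every alternative, and the day 8 rise of Smarcc2 (log2 change 0.43) was not called with GC and length trends removed, at -0.05.

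The Smarcd subunits, which link BAF to transcription factors, split likewise. Smarcd3 rose from 41.9 ± 1.78 to 96.0 ± 6.43 CPM and Smarcd1 fell from 123.9 ± 6.06 to 104.3 ± 8.14 CPM after 194.3 ± 12.1 CPM at day 2, which took their TPM ratio from between 0.6996 and 0.841 up to between 1.88 and 2.04. For Smarcd3, 48.2% of the exonic bases are shared with Chpf2 on the opposite strand, which reached 46.3 CPM, and reads of both genes cannot be told apart there. Smarcd2 rose from 14.3 ± 1.48 to 19.2 ± 0.33 CPM (log2 change 0.43), a call lost in DESeq2, under TPM scaling and without the undifferentiated DAMGO library, and it was lower, at -0.29, with GC and length trends removed.

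The remaining core genes were Smarcb1, which rose from 95.7 ± 3.33 to 184.4 ± 13.7 CPM, and Smarce1, which fell from 175 ± 5.18 to 125.6 ± 7.80 CPM. Of the ATPases, Smarca2 rose from 85.1 ± 1.24 to 134.6 ± 17.3 CPM at day 8, after 196.4 ± 2.97 CPM at day 4, and Smarca4 fell slightly, from 449.1 ± 22.9 to 391.1 ± 28.2 CPM (log2 change -0.20, adjusted p = 0.0245), a call lost when any 1 of 4 libraries was left out (undifferentiated NC or DAMGO, day 8 NC or DAMGO). Over all 22 alternatives the log2 change of Smarca4 ran from -0.67 to -0.13. Under TPM scaling the day 8 change of Smarca2 turned to -0.07. The TPM ratio of Smarca2 to Smarca4, 0.432 to 0.478 before and 0.418 to 0.719 at day 8, overlapped. The ARID subunits, which define the BAF and PBAF forms, fell or were not called: Arid2 of PBAF from 188.9 ± 1.92 to 78.3 ± 5.65 CPM, Arid1a from 209.5 ± 3.54 to 151 ± 9.73 CPM, and Arid1b, not called, at 64.4 ± 5.75 and 63.5 ± 3.36 CPM. Arid1b was called lower under TPM scaling (-0.31) and with GC and length trends removed (-0.52).

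Among the remodellers of the last group, Chd3 rose and Chd7 fell. Chd3 was at 18.8, 19.0 and 18.4 CPM in the undifferentiated libraries, at 91.5, 86.1 and 81.3 CPM at day 2, at 74.0, 81.5 and 71.6 CPM at day 4 and at 57.0, 58.8 and 66.2 CPM at day 8, with a log2 change to day 8 of 1.69 (SE 0.10, adjusted p = 1.09e-07). Its highest stage was day 2, and all 9 differentiating libraries lay above the undifferentiated ones. Chd7 was at 247.4, 240.4 and 243.9 CPM in the undifferentiated libraries, at 447.6, 287.8 and 318.6 CPM at day 2, at 264.6, 294.3 and 284 CPM at day 4 and at 90.4, 64.5 and 83.4 CPM at day 8 (log2 change -1.64, SE 0.14, adjusted p = 2.03e-06). It rose to day 2 and was lowest at day 8. Chd4, the main NuRD ATPase, fell from 587 ± 21.7 to 511.3 ± 31.7 CPM, a call lost without the day 8 NC library. Its log2 change ran from -0.77 to -0.17 over all 22 alternatives. Of the deacetylases, Hdac2 fell from 308 ± 10.7 to 90.2 ± 14.3 CPM (log2 change -1.78) and Hdac1 was not called, at 96.3 ± 3.53 and 98.4 ± 3.70 CPM. With GC and length trends removed the log2 changes were -0.44 for Hdac2 and -0.55 for Hdac1, so that setting did not keep the contrast.

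The earlier stages held more balanced changes. At day 2, 18 of the 47 genes were higher and 18 lower than undifferentiated, against 69.7% of all genes called, and at least 2-fold changes were called for Ezh1, Pcgf2, Smarcc2, Smarcd3, Actl6b and Chd3 (higher) and for Ezh2, Eed, Suz12, Rbbp7 and Pcgf5 (lower), against 33.7% of all genes. At day 4, 14 were higher and 15 lower, against 31.4% and 31% of all genes (62.3% in all). Under TPM scaling 17 were higher and 10 lower, against 4793 and 2832 of all 13144 genes. The median log2 change of all genes was then 0.17 in place of -0.0052. From day 2 to day 4, 9 rose and 12 fell, against 51.9% of all genes. Under TPM scaling 16 rose and 4 fell, against 4629 and 1462 of all 13144 genes. That median was then 0.23 in place of 0.0065. Suz12, Rnf2 and Phc3 rose by at least 2-fold over this step under TMM scaling, against 12.4% of all genes, and none of the 47 fell by as much, against 4.76%.

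From day 4 to day 8 more of the genes fell than rose. Over this step 10 rose and 25 fell, against 37.1% and 31.5% of all genes (68.6% in all). Under TPM scaling 1 rose and 32 fell, against 2427 and 6019 of all 13144 genes. The median log2 change of all genes was then -0.32 in place of 0.07. Changes of at least 2-fold were called for 11 of the 47, against 30.1% of all genes. Falls of that size were called for Ezh2, Suz12, Jarid2, Rnf2, Bmi1, Pcgf6, Phc3, Arid2, Chd7 and Hdac2, with log2 changes from -1.04 (Arid2) to -2.49 (Suz12), and a rise of that size for Actl6b. That rise of Actl6b was not called under TPM scaling (0.19), with GC and length trends removed (0.19), in either limma fit (0.14 and 0.16), in DESeq2 (1.01) or without the day 4 naloxone library (0.68). With the trends removed the fall of Hdac2 was -0.19 and not called, and that of Arid2 was -0.19 and still called, while the other 8 falls kept their call at -0.56 (Rnf2) to -1.97 (Chd7). Of the 47 genes, 25 had their lowest stage mean at day 8 and 18 their highest at day 2. The shares of all genes with these extremes were not computed, so these counts describe the 47 alone.

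Further subunits of the same complexes were taken from lists of their own. The genes named are those of largest change in either direction among the called ones, beside a few always reported. They do not stand for their list. Log2 changes in this paragraph are under TMM scaling alone, and their values under the alternatives are not given. The counts of each list at day 8 stand against the 41.6% of all genes called higher and 38.5% called lower. Of 26 other Polycomb genes tested, 5 rose and 18 fell by day 8, with a median log2 change of -0.95 against 0.05 over all genes. The PRC2 partner Mtf2 changed by -2.97, the Polycomb deubiquitinase partner Asxl2 by -2.37, the PRC1 partner Mga by -2.71, Mbtd1 by -2.80 and the H3K27 demethylase Kdm6a by -1.79. Of 12 other BAF genes, 5 rose and 3 fell, with a median of 0.096, led by the PBAF subunit Pbrm1 at -3.18, with Bcl11a at 0.97 and Brd7 at -0.68. Of 14 other NuRD and CHD genes, 3 rose and 7 fell, with a median of -0.27, and Chd5, a neuronal member of the family, rose from 6.03 ± 0.43 to 40.5 ± 2.53 CPM whereas Chd1, Chd6 and Chd9 changed by -3.43, -1.70 and -2.73. Of 6 genes of the Rest complex, which represses neuronal genes in other cells, 4 fell and none rose (median -0.74), with Rest itself at -0.79, Rcor1 at -1.68, Rcor2 at -1.46 and Sin3a at -0.69.

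Of 41 Hox and Cdkn2 genes, classical Polycomb targets, 26 had no count in any library and only Cdkn2a and Cdkn2b could be tested. Cdkn2a, an inhibitor of the cell cycle that Bmi1 is known to repress, was at 17.9 ± 1.54 CPM in the undifferentiated libraries, 8.88 ± 1.19 at day 2, 6.19 ± 0.47 at day 4 and 24.3 ± 1.34 at day 8. It fell to day 4 and was above its starting level at day 8. Cdkn2b was at 7.17 ± 1.19, 4.94 ± 1.17, 25.5 ± 3.15 and 76.4 ± 5.81 CPM at the same stages, a log2 change of 3.40 to day 8.

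Composition of the transcripts moved with these changes. Across the 47 genes, the log2 change to day 8 correlated with transcript GC content at r = 0.67, against 0.35 across all genes, and at day 2 the values were 0.66 and 0.34. Genes are not independent replicates, and these correlations are descriptions. Removing the trends left Suz12, Ezh2 and Bmi1 lower at day 8, at -1.87, -2.07 and -0.84, and Ezh1, Pcgf2, Chd3 and Actl6b higher. It ended the calls of Rbbp7, Ring1, Rnf2, Pcgf5, Cbx6, Cbx7, Smarcc2 and Phf10, and turned that of Smarcd2. Other genes gained a lower call, among them Arid1b (-0.52) and Dpf1 (-0.85), and Phc1 and Hdac1 turned to -0.55. Members called lower numbered 29 in place of 27, where all genes called lower numbered 5526 in place of 5062. The part of GC content in the results was not tested, nor was that of the astrocyte and proliferation genes whose values are given above.

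**Figure D4:**
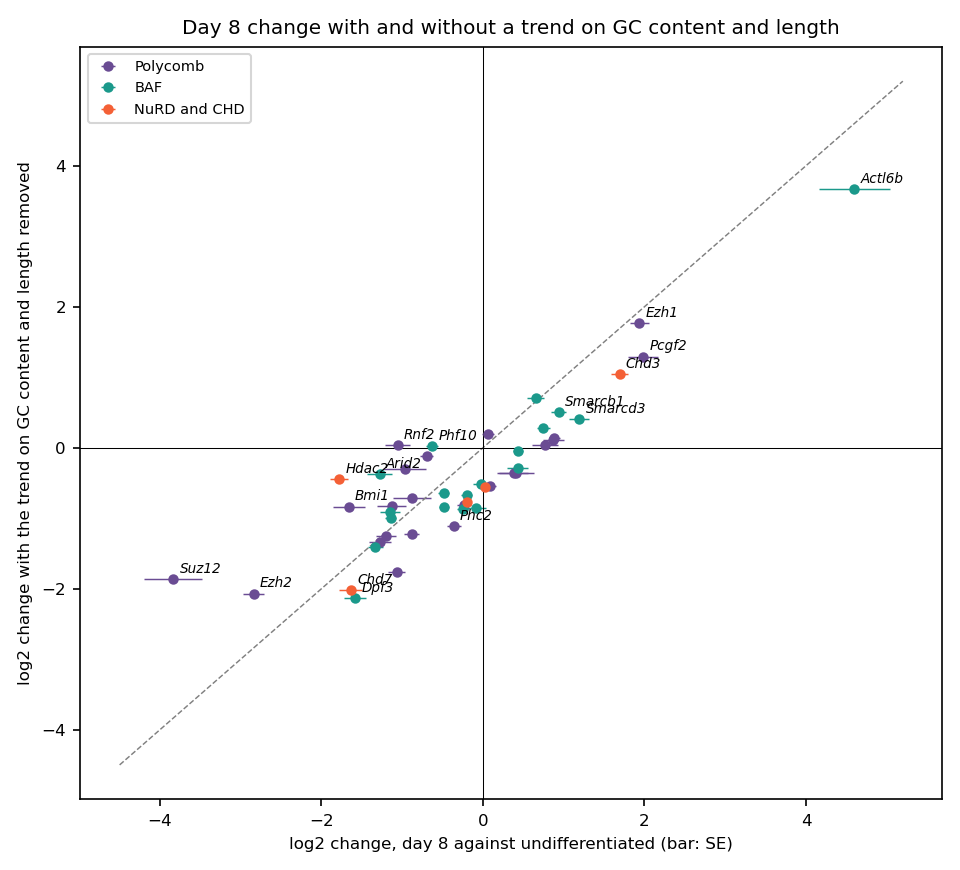
Log2 change from undifferentiated to day 8 of the 47 genes as fitted (horizontal axis) against the same change with trends on transcript GC content and length removed (vertical axis), with bars for the SE. Points far from the diagonal are Suz12, at -3.83 against -1.87, and Hdac2, at -1.78 against -0.44, while Ezh1 and Eed lie near it.

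The drugs called none of the 47 genes. A drug effect limited to 1 stage counts as spread in this fit, so the lack of calls does not show its absence. For naloxone against NC over the 4 stages, 0 of the 47 and 0% of all 13144 genes passed the threshold in edgeR, in DESeq2 and in limma, with 4 of the 47 and 1332 of all genes at an unadjusted p under 0.05. Those with the smallest p were Cbx2 at a log2 difference of 0.24, Bmi1 at -0.45 and Phc3 at -0.50, each with an adjusted p of 0.469. For DAMGO against NC, 0 genes were called in each tool and 314 had an unadjusted p under 0.05, none of them a member, and Cbx2, Phc3 and Smarcd1 stood first, at 0.20, -0.40 and 0.11 (adjusted p = 0.951). Naloxone against DAMGO called 0 genes in each tool, with 229 genes and no member at an unadjusted p under 0.05, and Eed, Smarcc1 and Pcgf1 had the smallest p, at -0.23, -0.11 and 0.34. Both drug comparisons use the same NC libraries.

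Whether a drug acted differently in differentiating and undifferentiated cells was asked with an interaction, which called 0 genes for either drug in edgeR. At an unadjusted p under 0.05 it had 226 genes for naloxone and 212 for DAMGO, with no member among them. In DESeq2 the naloxone interaction called 2 genes, and limma on log2(TPM + 0.1) called 6 for naloxone and 9 for DAMGO, again without a member. The members with the smallest p were Arid1b (-0.38), Cbx8 (0.56) and Ezh1 (-0.42) for naloxone and Ring1 (-0.49), Kdm6b (-0.33) and Dpf1 (-0.41) for DAMGO, all with an adjusted p of 1.

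Within single stages each comparison is of 1 library with 1 library and has no replicate check. At day 2, 9 of the 47 genes were at least 1.5-fold lower with naloxone than with NC (Arid2, Bmi1, Chd7, Pcgf3, Pcgf5, Pcgf6, Phc3, Rnf2 and Suz12), close to the 19.9% of all genes. With DAMGO, 4 were lower (Bmi1, Pcgf5, Phc3 and Suz12), against 17.3% of all genes, and the same 4 were lower with both drugs, against 14.8%, with the NC library shared. On the higher side, 1 gene passed 1.5-fold with each drug at day 2, Actl6b with naloxone and Cbx8 with DAMGO, against 2.69% and 2.61% of all genes. The log2 differences at day 2 with naloxone and DAMGO were -1.91 and -1.43 for Suz12, -1.40 and -1.07 for Phc3 and -1.16 and -0.89 for Bmi1. In the undifferentiated libraries no member passed 1.5-fold with either drug, and at day 4 only Pcgf1 did, lower with DAMGO, against 3.68% of all genes. At day 8 Suz12 alone was that much lower with naloxone, against 10.2% of all genes.

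The day 2 differences went with GC content. Across the 47 genes the log2 difference from NC correlated with transcript GC content at r = 0.69 for naloxone and 0.74 for DAMGO at day 2, against 0.53 and 0.46 across all genes, and at 0.63 for naloxone at day 8, against 0.38. For DAMGO at day 8 the values were -0.0062 across the 47 and 0.0199 across all genes. At day 4 they were -0.16 for naloxone and -0.085 for DAMGO across the 47, and in the undifferentiated libraries 0.15 for naloxone and 0.46 for DAMGO, against 0.053 and 0.10 across all genes. The part of GC content in these differences was not tested.

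**Figure D5:**
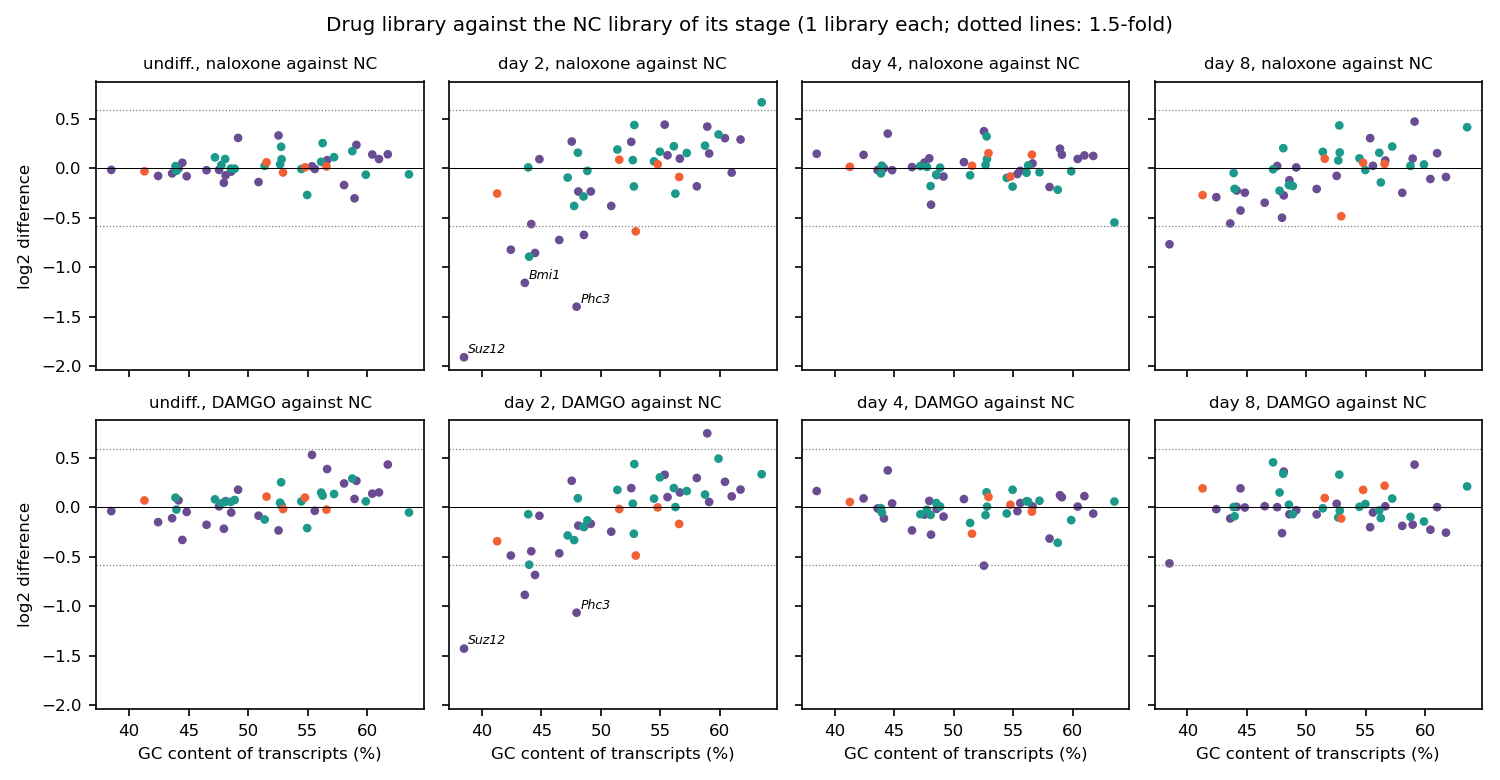
Log2 difference of each drug library from the NC library of its stage for the 47 genes (vertical axis) against transcript GC content in percent (horizontal axis), 1 panel a pair, with dotted lines at 1.5-fold and the family colours of the heat map. At day 2 the genes of low GC content lie lowest with both drugs, with Suz12 at -1.91 and -1.43, and at day 4 the points lie around 0.

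Passage of the cells moved none of these genes past the threshold. Between the reference libraries of passage 13 and passage 8, 0 of the 47 genes and 0.0217% of 13855 genes were called in edgeR, 3 genes in all, with 2 of the 47 and 645 of all genes at an unadjusted p under 0.05. The smallest p belonged to Pcgf1 at a log2 difference of 1.18, Kdm6b at 0.37 and Smarca2 at 0.41, each with an adjusted p of 1. Pcgf1 was at 1.97 CPM at passage 8 and 4.51 CPM at passage 13. Actl6b had 0 counts at passage 8 and 3 at passage 13, and was the single member called by limma on log2(TPM + 0.1). Ezh2 was at 227.5 and 196.9 CPM, Suz12 at 194.3 and 174.1 CPM and Actl6a at 131.1 and 115.4 CPM in the 2 libraries. With 1 library each, the spread for this comparison was taken from the other 12.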

How the data were processed

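RNA was sequenced from 14 libraries made with a TruSeq kit that does not mark strand, per the labels' protocols. Per the submitters' processing notes, the authors used Bowtie and RSEM on mm10, with no versions stated. For each gene the deposited files hold expected counts, which RSEM estimated and which were rounded to whole numbers here, and TPM values, which the authors scaled by gene length and library size, per the file headers. Expected counts of Rbbp4, Smarcd3, Actl6a, Phf10 and Hdac1 were not whole in any of the 14 libraries, since RSEM divides reads that fit several genes. Symbols, positions and GC content came from a GENCODE annotation of the same build, with symbols for 29202 identifiers.

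Stage and drug comparisons came from 1 additive fit of stage and treatment over 12 libraries (edgeR 4.0.16 in R 4.3.3, quasi-likelihood test, TMM scaling, 6 residual degrees of freedom, Benjamini-Hochberg adjustment over all 13144 genes tested, threshold 0.05). The drug by differentiation interactions had 4 residual degrees of freedom. The passage comparison came from a fit of all 14 libraries and 13855 genes in which each reference library had a term of its own. Ratios of 2 genes were taken in TPM, without a test. On simulated counts with the design of day 8 against undifferentiated (12815 genes), 92.5% of genes changed by 2-fold were called with the right sign. Of genes changed by 1.5-fold, 50.7% were. The changed genes were drawn from those above a minimum level, and the simulated counts held no other stage, drug or GC effect.

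Alternatives were DESeq2 (1.42.0) and its size factors, TPM scaling, no filter, limma (3.58.1) on log2(TPM + 1) and log2(TPM + 0.1), trends on GC content and length removed (mgcv 1.9.3), stage alone, the drugs without day 2 or in differentiating libraries alone, and each of the 12 libraries left out. All 47 genes are named for day 8, genes past the threshold and 2-fold and the ratio partners for other stages, and the 3 of smallest p where none passed. From other lists up to 4 genes past the threshold at day 8, those of largest change, are named, beside a few always reported.

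The 47 genes and all lists were chosen with earlier results of these data known. The low-count filter by stage was chosen after results with a filter by the design (13413 genes) had been seen. The stage fits without the day 2 libraries, the 1.5-fold limit for single libraries (with 0.5 CPM added), the GC correlations and the 5 promoter motifs were also chosen after the data had been seen.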

Additional observations from a re-analysis of the deposited data

How the results depend on the processing

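Of the genes called at day 8 against undifferentiated, 27 of 40 kept their call and direction under all alternatives run. So did 19 of 22 named at day 2, 13 of 18 at day 4, 8 of 14 from day 2 to day 4 and 14 of 22 from day 4 to day 8. In these 4 comparisons 36, 29, 21 and 35 members were called. Only those past 2-fold and the ratio partners were followed, so these shares do not compare with that of day 8. A filter on low counts by the design, added after the data had been seen, tested 13413 genes and gave the same counts of higher and lower members in all 5 stage comparisons. Depth limits Actl6b most, with 1 count in each undifferentiated library. With each library left out in turn, a stage that loses one rests on 2 libraries. No paired analysis was possible because the labels carry no replicate numbers, but the fit used compares stages within treatments and drugs within stages, and the fit on stage alone is one of the alternatives. The cause of the changes below was not tested.

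With GC and length trends removed, 8 members (not 13) were higher at day 8 and 6 (not 10) rose from day 4 to day 8. Of all 13144 genes, 4804 (not 5470) were higher at day 8 and 3877 (not 4880) rose from day 4 to day 8. These log2 changes turned sign: at day 2 Cbx2 to -0.27, Cbx7 to -0.15 and Smarca4 to -0.17; at day 4 Cbx6 to -0.052; at day 8 Rnf2 to 0.035, Pcgf1 and Cbx8 to -0.36, Phc1 and Hdac1 to -0.55, Smarcc2 to -0.046, Smarcd2 to -0.29 and Phf10 to 0.0197. From day 2 to day 4 Ezh2 turned to -0.27, Cbx8 to 0.039, Smarcc1 to -0.28 and Phf10 to -0.072, and from day 4 to day 8 Cbx8 and Dpf1 to -0.50, Smarcd3 to -0.42 and Phf10 to 0.25.

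TPM scaling, limma on log2(TPM + 0.1) and on log2(TPM + 1) each gave 16 members higher (not 9) from day 2 to day 4. Each gave 4 lower (not 12) over that step, and they gave 1, 2 and 2 higher (not 10) from day 4 to day 8. Of all 13144 genes, 4629, 4636 and 4755 were higher and 1462, 1533 and 1565 lower from day 2 to day 4. From day 4 to day 8, 2427, 2419 and 2530 of all genes were higher. In the same order, the values that turned sign were, at day 4, 0.29, 0.28 and 0.23 for Cbx7, 0.036, 0.035 and 0.035 for Smarca4, and 0.18, 0.18 and 0.18 for Smarcd1. At day 8 they were -0.36, -0.36 and -0.35 for Phc1, -0.069, -0.079 and -0.077 for Smarca2, and -0.11, -0.11 and -0.11 for Hdac1. From day 2 to day 4 they were 0.097, 0.0995 and 0.093 for Ezh1, 0.12, 0.12 and 0.0999 for Cbx7, 0.41, 0.41 and 0.39 for Cbx8, 0.0063, 0.0053 and 0.0053 for Smarca4, 0.094, 0.086 and 0.085 for Actl6a, and 0.0499, 0.042 and 0.042 for Dpf2. From day 4 to day 8 they were -0.54, -0.56 and -0.53 for Cbx8, -0.14, -0.14 and -0.14 for Smarcd3, -0.058, -0.051 and -0.051 for Dpf2, and -0.36, -0.35 and -0.35 for Dpf1. For DAMGO by differentiation, Dpf1 turned to 0.17, 0.17 and 0.17. For passage, limma on log2(TPM + 0.1) called 1 member, Actl6b, higher. Smarcd1 at day 4, at -0.01, was at 0.0006 with DESeq2 size factors, 0.0007 in DESeq2 and 0.0083 without the day 2 libraries.

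Leaving out 1 library gave 7 (without the day 2 DAMGO or the day 4 DAMGO library) to 13 members lower from day 2 to day 4. Values that turned sign ranged at day 4 from -0.029 to 0.26 for Bmi1, -0.16 to 0.048 for Cbx7 and -0.054 to 0.046 for Smarcd1, and at day 8 from -0.11 to 0.0802 for Arid1b, -0.18 to 0.024 for Dpf1 and -0.013 to 0.082 for Hdac1. From day 2 to day 4 they were -0.36 to 0.0078 for Cbx8 and -0.008 to 0.097 for Smarcc1, and from day 4 to day 8 -0.0048 to 0.24 for Cbx8, -0.10 to 0.066 for Dpf3 and -0.091 to 0.035 for Smarca4. The log2 TPM ratio of Cbx6 to Cbx8 moved between undifferentiated and day 8 by -0.044 (without the day 8 DAMGO library) to 0.32. The other 1896 values of named members with 1 library left out kept direction and call, 44 lost their call and 13 gained one.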
